A study of Mus musculus with 12 samples.

Results

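10 immediate early genes, Fos, Fosb, Junb, Atf3, Egr1, Nr4a1, Npas4, Ier2, Dusp1 and Arc, were followed through 12 mRNA-seq libraries of mouse retina. They were chosen by name, and all 10 were found once among the 37991 genes of the deposited tables, so that the members were 10 of 37991. All 10 are autosomal, protein coding and polymorphic between the strains. The libraries fall into 4 genotypes of 3 replicates each. The inbred parents (F0) were C57BL/6J and Cast/EiJ, and the hybrids (F1) were B6xCast, from a C57BL/6J male and a Cast/EiJ female, and CastxB6, from the reverse cross. Each library was a pool of 6 to 8 retinas from male mice aged 8 weeks, kept on a 12 h light/dark cycle and killed late in the evening. No mouse carried a transgene or received a treatment. The question addressed here is whether differences between strains and crosses exceeded the spread between replicate pools, and the p-values measure only that spread.

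Immediate early genes are transcribed within minutes of a stimulus, from factors that are already present in the cell and without new protein synthesis. In neurons they respond to activity, light, growth factors and stress, through kinases that act on CREB and on serum response factor at their promoters, and their mRNAs are short-lived. In the retina their levels depend on illumination and on handling of the tissue, and therefore on the moment of collection. Fos, Fosb and Junb encode subunits of the dimeric transcription factor AP-1, and Atf3 encodes a related leucine zipper protein induced by stress and injury. Egr1 encodes a zinc finger factor, Nr4a1 an orphan nuclear receptor and Npas4 a basic helix-loop-helix factor that responds to calcium entry in neurons. Ier2 encodes a small nuclear protein, Dusp1 a phosphatase that switches off MAP kinases, and Arc a synaptic protein that regulates AMPA receptor trafficking.

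The 250 bases before the gene start are shown for the 6 members whose values are described most closely below and whose promoter was in the RefSeq table (build GRCm38.p6). They are Fos and Nr4a1, which were highest in the same F0 C57BL/6J pool, Junb and Npas4, which shared their highest library in each group, Dusp1, and Atf3, which differed most between the strains. Capitals mark the core of the CREB site, TGACG on either strand (CGTCA as read here), including overlapping matches. The intervals are chr12:85473640-85473889 (plus strand) for Fos, chr15:101266596-101266845 (plus) for Nr4a1, chr8:84978749-84978998 (minus) for Junb, chr19:4989972-4990221 (minus) for Npas4, chr17:26508473-26508722 (minus) for Dusp1 and chr1:191183334-191183583 (minus) for Atf3, and every sequence is written 5′ to 3′ in the sense of its gene.
Fos: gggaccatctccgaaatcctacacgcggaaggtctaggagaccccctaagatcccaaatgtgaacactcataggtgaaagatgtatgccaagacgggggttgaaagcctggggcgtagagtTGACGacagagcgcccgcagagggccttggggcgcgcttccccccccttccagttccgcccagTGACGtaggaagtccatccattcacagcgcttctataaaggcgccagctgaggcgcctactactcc
Nr4a1: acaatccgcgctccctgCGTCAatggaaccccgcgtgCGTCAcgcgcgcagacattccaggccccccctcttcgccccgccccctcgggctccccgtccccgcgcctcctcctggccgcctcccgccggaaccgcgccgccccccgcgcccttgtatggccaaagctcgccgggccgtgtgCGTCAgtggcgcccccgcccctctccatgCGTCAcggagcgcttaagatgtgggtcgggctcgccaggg
Junb: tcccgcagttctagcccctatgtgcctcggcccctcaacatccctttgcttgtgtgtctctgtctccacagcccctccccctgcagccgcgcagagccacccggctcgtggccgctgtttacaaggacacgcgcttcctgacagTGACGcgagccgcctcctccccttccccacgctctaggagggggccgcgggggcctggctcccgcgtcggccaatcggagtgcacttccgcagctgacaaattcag
Npas4: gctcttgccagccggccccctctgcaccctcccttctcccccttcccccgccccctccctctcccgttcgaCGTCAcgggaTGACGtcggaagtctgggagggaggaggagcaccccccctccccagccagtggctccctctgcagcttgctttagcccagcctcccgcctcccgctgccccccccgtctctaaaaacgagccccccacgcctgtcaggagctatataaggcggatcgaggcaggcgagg
Dusp1: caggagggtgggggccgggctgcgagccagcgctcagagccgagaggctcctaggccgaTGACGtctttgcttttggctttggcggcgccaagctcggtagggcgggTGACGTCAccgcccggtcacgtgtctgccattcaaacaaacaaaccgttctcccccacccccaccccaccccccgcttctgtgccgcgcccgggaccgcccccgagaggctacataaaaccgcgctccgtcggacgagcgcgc
Atf3: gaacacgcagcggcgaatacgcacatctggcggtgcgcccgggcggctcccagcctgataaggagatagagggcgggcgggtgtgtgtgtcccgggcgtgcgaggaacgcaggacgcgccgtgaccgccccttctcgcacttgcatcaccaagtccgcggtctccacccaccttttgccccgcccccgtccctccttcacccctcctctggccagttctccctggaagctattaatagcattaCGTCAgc

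The table held the promoters of 7 of the 10 members, those of Egr1, Arc and Ier2 not among them, and Fosb completed the 7. The core was present in all 7 windows, against 17.8% of the 32851 promoter windows of the same length. Nr4a1 held 4 cores, Dusp1 3, Fos and Npas4 2 each, and Junb, Fosb and Atf3 1 each. The full palindrome TGACGTCA was found in Dusp1 alone of the 7, and in 1.55% of all windows. The AP-1 site TGANTCA and the CArG box of serum response factor were in none of the 7, and in 6.75% and 1.47% of all windows. These are matches of letters in a short window and were not set against the expression values.

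Unique hits are reads assigned to 1 gene and no other in F0, and to 1 allele of 1 gene in F1, so that F1 hits leave out reads that both alleles share. They ranged from 8158534 to 11888819 per F0 library and from 8808577 to 12363291 per F1 library. The levels below are count equivalents, estimated with MMSEQ and normalized by the authors, and the F1 level is the mean of the 2 allele columns. The retinal identity of the libraries was plain, since 7 rod genes summed to between 16278 and 18111 FPKM in every library. Over all genes, replicate 1 stood apart in 3 of the 4 groups (all but F1 CastxB6), where the chi-square of unique hits per degree of freedom was 7.18 to 12.5 against the other 2 replicates and 1.88 to 3.20 between those. F0 C57BL/6J replicate 2 stood apart in several members, as described below. F0 libraries came from 1 sequencing lane and a strain-specific transcriptome, F1 libraries from 2 lanes and a hybrid transcriptome, so that generation, lane and reference cannot be told apart.

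Per transcript length, the members fell into a group of 6 between 5 and 12 FPKM and a group of 4 near or below 1 FPKM. Mean FPKM over the 12 libraries was 11.9 ± 5.44 (SD, n = 12) for Nr4a1, 10.2 ± 3.24 for Fos, 9.46 ± 6.40 for Egr1 and 9.32 ± 1.31 for Dusp1. Neighbours in this order overlapped in range. Ier2 followed at 7.06 ± 0.559 and Junb at 5.15 ± 0.950, again with overlapping ranges. The lower group was Npas4 at 1.32 ± 0.344, Atf3 at 1.003 ± 0.672, Arc at 0.443 ± 0.0934 and Fosb at 0.430 ± 0.133, and here too neighbours overlapped. From the lowest to the highest library, count equivalents spanned 12.9-fold in Atf3 and 6.92-fold in Egr1, but 1.35-fold in Ier2.

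**Figure D1:**
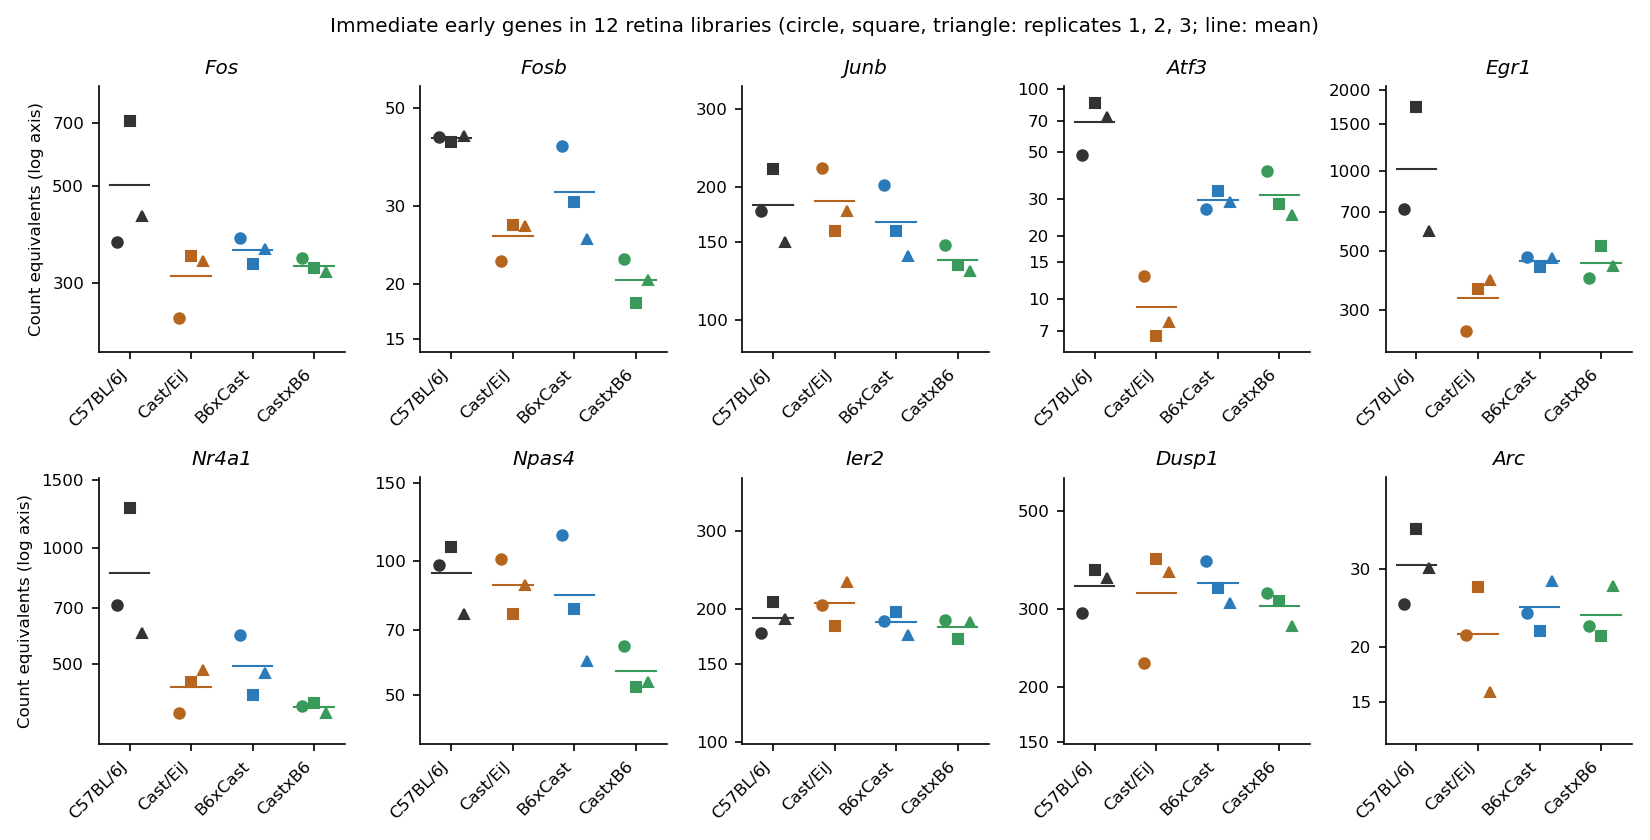
Count equivalents (log axis) of the 10 immediate early genes in each of 12 libraries, with 1 point per library and a line at the mean of each group of 3. Egr1, Nr4a1 and Fos are highest in F0 C57BL/6J replicate 2 (square), while Atf3 separates the F0 strains in every library.

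Replicates of the same genotype differed most in Egr1. Its count equivalents were 719, 1730 and 594 in replicates 1 to 3 of F0 C57BL/6J and 250, 359 and 390 in F0 Cast/EiJ. The hybrid pools had 475, 434 and 470.5 in B6xCast and 394.5, 520 and 437.5 in CastxB6. A single library, F0 C57BL/6J replicate 2, was thus far above its 2 fellow replicates, and the 6 F1 pools lay close together. The count rests on 1636 unique hits in that library, against 622 and 489 in the other two, and so is not limited by depth.

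Nr4a1 had the same outlying pool. Its count equivalents were 713, 1270 and 602 in F0 C57BL/6J, 372, 450 and 481 in F0 Cast/EiJ, 594, 416.5 and 474.5 in F1 B6xCast and 388.5, 397 and 373.5 in F1 CastxB6. Fos was also highest there, with 374, 708 and 428 in F0 C57BL/6J, 250, 346 and 338 in F0 Cast/EiJ, 380.5, 332.5 and 360 in F1 B6xCast and 342, 324.5 and 319 in F1 CastxB6. In F0 C57BL/6J replicate 2, 9 of the 10 members were above the mean of their group, by 0.94 (log2) for Egr1, 0.64 for Nr4a1 and 0.55 for Fos. Fosb was the exception, at -0.03. The other 2 pools of that strain had 2 and 3 members above the mean. The share of all genes above their group mean in each pool is not given here, so that these counts are a description. Tallies of the pools in other gene lists follow below.

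The spread within groups was summarised as the residual SD of log2(count equivalents + 1) in a fit of the 4 groups (8 degrees of freedom), and set against the SD that limma's trend gives for genes of the same level. It was at least 2 times the trend in 4 of 10 members, where 10.4% of all 14710 genes tested reached that ratio. The 4 were Egr1 (0.46, or 4.47 times the trend), Nr4a1 (0.33, 3.20 times), Fos (0.28, 2.49 times) and Dusp1 (0.25, 2.13 times). Junb had 1.56 times the trend, Npas4 1.51 and Atf3 1.27. Arc, Ier2 and Fosb were below it, at 0.91, 0.82 and 0.73 times, and the median ratio was 1.54 over the members and 1.05 over all genes.

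Without F0 C57BL/6J replicate 2 the count fell to 2 of 10, Egr1 and Dusp1, with 11.4% of all genes at that ratio. Residual SDs were then 0.23 for Egr1, 0.19 for Nr4a1 and 0.16 for Fos. In Dusp1 the library farthest from its group was F0 Cast/EiJ replicate 1, with 227 count equivalents against 390 and 364 in its fellow replicates. The other 3 groups of Dusp1 held 294, 368 and 353 in F0 C57BL/6J, 384.5, 335 and 310.5 in F1 B6xCast and 326, 312.5 and 275 in F1 CastxB6. Without that Cast/EiJ pool its residual SD was 0.14, and the count of members was 3, with Dusp1 no longer among them. For Fosb, Arc, Atf3 and Ier2 the residual SD was below the SD expected from counting unique hits alone, about 0.33, 0.32, 0.37 and 0.13. That counting SD is an upper figure, because F1 hits leave out the reads shared by both alleles while F1 levels rest on them too.

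**Figure D2:**
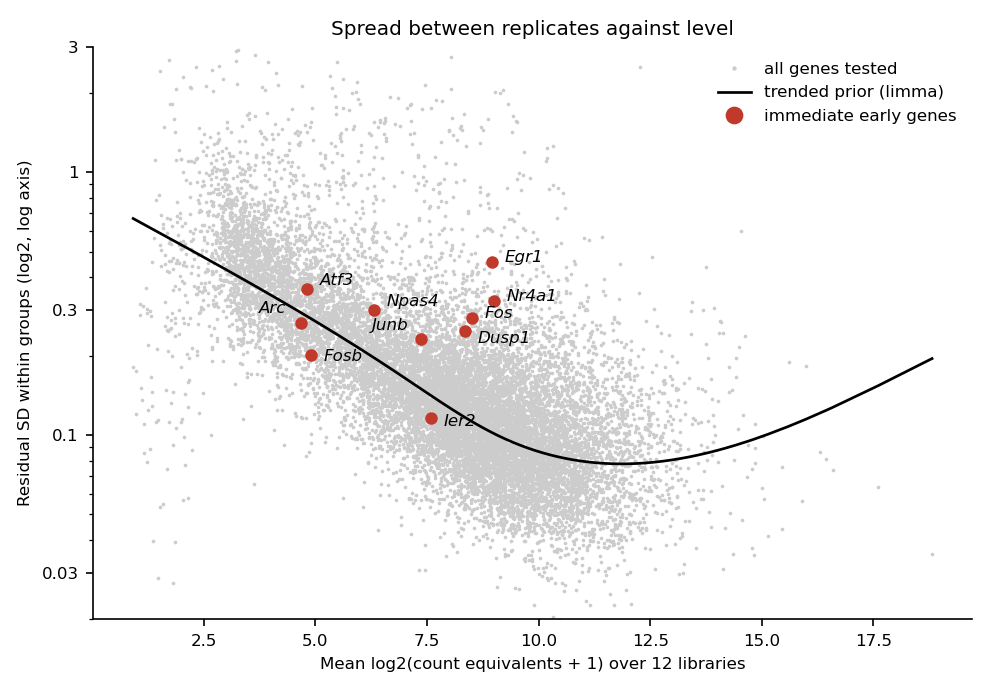
Residual SD within groups (log axis) against the mean log2 level over 12 libraries, for all genes tested (grey), the limma trend (line) and the 10 immediate early genes (red). Egr1, Nr4a1, Fos and Dusp1 lie at 2.13 to 4.47 times the trend, while Arc, Ier2 and Fosb lie below it.

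Egr1 and Fos were more spread in F0 than in F1. Pooled within groups, the SD of Egr1 was 0.63 in F0 and 0.15 in F1, and that of Fos 0.39 and 0.08. These are ratios of 4.17 and 4.97, where the median gene had 1.43 and where 95.4% and 97.0% of genes had a smaller ratio. Nr4a1 and Dusp1 each had a ratio of 2.27. Without F0 C57BL/6J replicate 2, an alternative added after seeing the data, the F0 SD was 0.30 for Egr1 and 0.23 for Fos, with ratios of 1.99 and 2.90 where the median gene had 1.45. The ratio of Nr4a1 was then 1.001 and that of Dusp1 2.54. Npas4 and Fosb went the other way, with 0.23 and 0.35 for Npas4 and 0.11 and 0.27 for Fosb in F0 and F1. The count for Fosb is low, between 12 and 40 unique hits per library.

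Deviations from the group means were not shared alike by all members. Junb and Npas4 had Pearson's r = 0.93 and Spearman's rho = 0.94 over the 12 libraries (2-sided exact permutation within groups, p = 0.001543 and 0.002315). Egr1 and Nr4a1 had r = 0.92 and rho = 0.87 (exact permutation p = 0.003086 for each), and Fos and Dusp1 r = 0.68 and rho = 0.85 (exact permutation p = 0.006173 and 0.003086). Over the 45 pairs of members, adjusted p for r (Benjamini-Hochberg, exact permutation) was 0.06944, 0.06944 and 0.09259 for these 3 pairs, so that 0 of 45 passed, while adjusted p for rho was 0.0463 in each of them. Leaving out the 2 libraries farthest from the median of the first gene gave r = 0.91 for Junb with Npas4, 0.71 for Egr1 with Nr4a1 and 0.82 for Fos with Dusp1. Without the 3 replicate 1 libraries that stood apart over all genes, an alternative added after seeing the data, r over the other 9 was 0.94, 0.97 and 0.25. Without the 3 F0 C57BL/6J libraries r was 0.94 for Junb with Npas4, 0.65 for Egr1 with Nr4a1 and 0.94 for Fos with Dusp1. The values of Egr1 with Nr4a1 and of Fos with Dusp1 thus moved with the libraries left out.

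Fos had r = 0.89 with Egr1 and 0.88 with Nr4a1, for which the exact permutation p was 0.08488 and 0.03318 and the adjusted p 0.6366 and 0.3194. Without the 2 libraries farthest from the median of Fos they were 0.77 and 0.80, and without the 3 F0 C57BL/6J libraries 0.76 and 0.79 over the 9 others. In all, 38 of 45 pairs had a positive r, with a median of 0.29. All pairs share the same 12 libraries and their normalization.

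In count equivalents, Junb and Npas4 shared their highest library with Egr1 in F0 C57BL/6J and F1 B6xCast, but not in F0 Cast/EiJ or F1 CastxB6. Junb count equivalents were 177, 220 and 150 in F0 C57BL/6J, 221, 159 and 177 in F0 Cast/EiJ, 202.5, 159 and 139.5 in F1 B6xCast and 148, 133 and 129.5 in F1 CastxB6. Npas4, on the FPKM scale, had 1.59, 1.74 and 1.23 in F0 C57BL/6J, 1.64, 1.22 and 1.42 in F0 Cast/EiJ, 1.89, 1.29 and 0.983 in F1 B6xCast and 1.06, 0.859 and 0.877 in F1 CastxB6. Both were highest in replicate 1 in 3 of the 4 groups and in replicate 2 in F0 C57BL/6J. The same 4 libraries had the highest correlation, within their group, between a gene's deviation and the GC content of its longest transcript, across 11195 genes. That r was 0.10 in F0 C57BL/6J replicate 2, and in the replicate 1 libraries 0.07 for F0 Cast/EiJ, 0.12 for F1 B6xCast and 0.08 for F1 CastxB6. Junb transcripts are 62.6% GC and Npas4 transcripts 56.7%, against a median of 50.4% over those genes. Over the 12 libraries, the deviation of Junb had r = 0.79 with that GC correlation and that of Npas4 0.77. Ier2, at 60.9% GC, had 0.25, Arc, at 59.0%, had -0.03, and Nr4a1, at 57.03%, had 0.57. A part of base composition in the shared deviations of Junb and Npas4 was not tested.

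**Figure D3:**
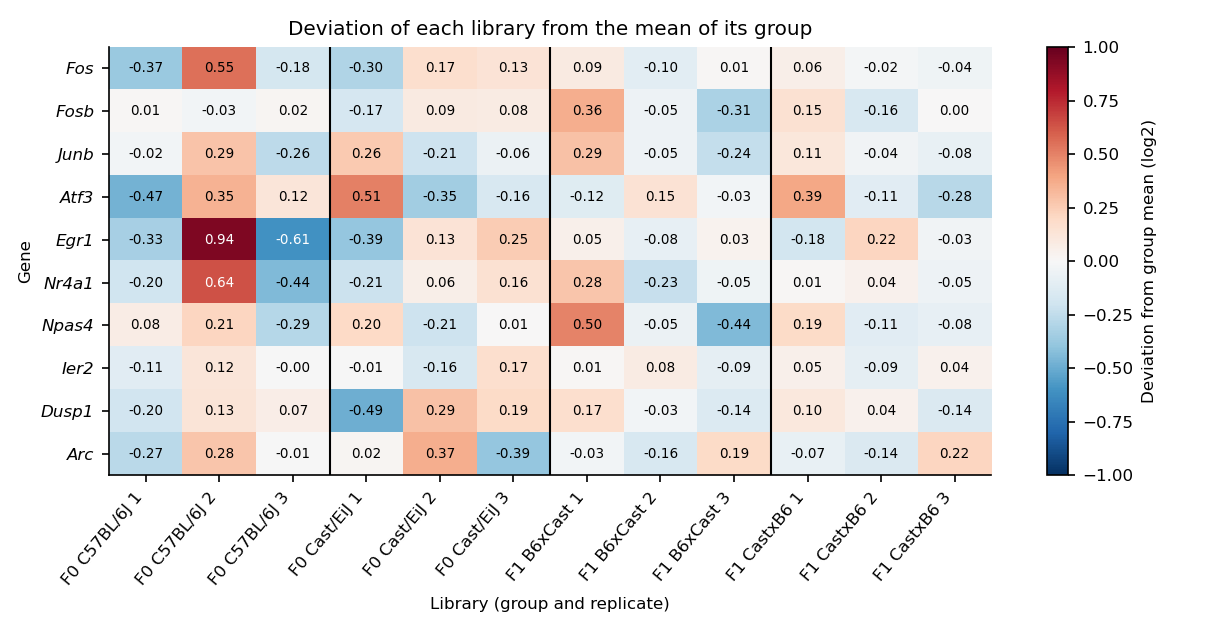
Deviation of each library from the mean of its group, in log2 units, for the 10 immediate early genes (rows) and 12 libraries (columns), with vertical lines between groups. Egr1, Nr4a1 and Fos are raised by 0.94, 0.64 and 0.55 in F0 C57BL/6J replicate 2, and Npas4 by 0.50 in F1 B6xCast replicate 1.

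F0 C57BL/6J replicate 2 was also compared with the other libraries by markers of 11 retinal and neighbouring cell types. No marker was below 0.1 FPKM in every library. In that library the 7 rod markers summed to 16278 FPKM and the 6 lens markers to 0.443 FPKM, each the lowest of the 12, where lens sums reached 11.8 elsewhere. The 4 endothelial markers summed to 21.4 FPKM, the highest of the 12. Sums for cones (402), Mueller glia (1148), bipolar (389), amacrine (200), ganglion (284), pigment epithelial (11.1), blood (85.6) and microglial (3.17) markers lay within the range of the other 11 libraries. Whether tissue composition has a part in the raised members of that pool was not tested, and in a bulk sample fewer cells of a type and less RNA per cell cannot be told apart.

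The strains differed in 4 of the 10 members in F0, all lower in Cast/EiJ. They were Atf3 (6.98-fold lower), Egr1 (2.76-fold), Nr4a1 (1.89-fold) and Fosb (1.65-fold), with folds on the scale of count equivalents + 1. Atf3 passed the filter on low values mainly through C57BL/6J, the group in which it is high. The comparison covered 14452 genes and called 33.8% of them at an adjusted p under 0.05 (limma, Benjamini-Hochberg), and 16.6% were called as lower in Cast/EiJ. Members were thus called about as often as genes in general, while their direction was the same in all 4. The median log2 difference (Cast/EiJ minus C57BL/6J) was -0.58 over the members and 0.03 over all genes. Of all calls 50.9% were higher in Cast/EiJ, and 34.0% once TMM factors were applied as well, under which the median gene moved to -0.07.

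Atf3, on chromosome 1 from 192994175 to 193007219 of NCBI37, had 48.3, 85.9 and 73.2 count equivalents in F0 C57BL/6J and 12.9, 6.67 and 7.77 in F0 Cast/EiJ. All 3 Cast/EiJ libraries were far below all 3 of C57BL/6J. The log2 difference was -2.80 ± 0.32 (SE, n = 3 per strain; limma adjusted p = 0.0002339), and 92.0% of the sum of squares of Atf3 over the 12 libraries lay between groups. The Cast/EiJ values rest on only 6, 4 and 6 unique hits. In F0 Cast/EiJ only replicate 1 reached 10 count equivalents, so that Atf3 passed the filter on low values mainly through C57BL/6J. The size of its F0 fold thus rests on values near the floor. The call held under all 14 alternatives run for it, with log2 differences between -3.06 and -2.38. Among them was the fit without that filter (limma adjusted p = 0.01609).

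Egr1, on chromosome 18, differed by -1.46 ± 0.35 (log2, SE, n = 3 per strain; limma adjusted p = 0.01234). Without F0 C57BL/6J replicate 2, the pool in which it peaked, the log2 difference of Egr1 was -0.996 (adjusted p = 0.00899 in limma) and was still called. Nr4a1, on chromosome 15 from 101097277 to 101105223, differed by -0.92 ± 0.24 (limma adjusted p = 0.01807) and by -0.60 without that pool (adjusted p = 0.01795). Nr4a1 lost its call without F0 Cast/EiJ replicate 1 or 2 (limma adjusted p = 0.06065 and 0.05369). Both genes lost it without a filter on low values, with limma adjusted p of 0.1702 and 0.1955.

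Fosb, on chromosome 7 from 19888070 to 19895394, had 43.1, 42 and 43.3 count equivalents in F0 C57BL/6J and 22.6, 27.2 and 27.1 in F0 Cast/EiJ. Its groups were narrow and did not overlap, and the log2 difference was -0.72 ± 0.20 (limma adjusted p = 0.02356). The call was lost when any 1 of the C57BL/6J pools or Cast/EiJ replicate 1 was left out (adjusted p between 0.05657 and 0.06987 in limma) and with DESeq2 on unique hits (adjusted p = 0.0955). Fos did not pass, at -0.65 ± 0.23 (limma adjusted p = 0.05472), although its F0 groups did not overlap either. It passed under 6 of 14 alternatives, among them edgeR (adjusted p = 0.01168) and DESeq2 (0.0008176) on unique hits, while its log2 difference shrank to -0.38 without F0 C57BL/6J replicate 2 (limma adjusted p = 0.1348). In 5 of 10 members the F0 groups did not overlap with Cast/EiJ lower, as in 22.7% of all genes tested.

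The other 5 members did not pass in F0. Arc had 25, 37 and 30.2 count equivalents in C57BL/6J and 21.3, 27.3 and 15.8 in Cast/EiJ, groups that overlapped, with a log2 difference of -0.51 (95% interval -1.15 to 0.12). For Junb it was 0.03 (-0.37 to 0.43), with the sign reversed under TMM, and for Npas4 -0.08 (-0.50 to 0.34). Dusp1 differed by -0.08 (-0.53 to 0.36). Ier2, with 176, 207 and 190 count equivalents in C57BL/6J and 204, 183 and 230 in Cast/EiJ, differed by 0.10 (-0.18 to 0.39). For Ier2, Junb, Npas4 and Dusp1 these intervals leave out a change of 2-fold in either direction, and that of Arc does not.

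Markers of other cell types also differed between the F0 strains. The 5 blood markers summed to between 76.0 and 115 FPKM in the C57BL/6J libraries and to between 35.5 and 58.0 in Cast/EiJ, and the 6 pigment epithelium markers to between 9.10 and 11.1 and between 3.68 and 4.61. Cone sums were 402 to 476 and 294 to 353, and ganglion cell sums 284 to 312 and 211 to 228. Microglial sums were 2.79 to 3.49 and 1.64 to 2.56, also higher in C57BL/6J. Rod sums went the other way, with 16278 to 16497 in C57BL/6J and 17310 to 18111 in Cast/EiJ, as did amacrine sums, with 156 to 199.7 and 200.5 to 225. Their part in the lower levels of Atf3, Egr1, Nr4a1 and Fosb in Cast/EiJ was not tested.

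Between the reciprocal crosses, which shared lanes and reference, 0 of 10 members differed by limma, and also 0 by edgeR or DESeq2 on unique hits. Only 0.0359% of 13925 genes were called. Unadjusted p was under 0.05 for 2 members, both lower in CastxB6, against 4.4% of all genes in either direction and 2.05% lower. In both the F1 groups did not overlap, with CastxB6 lower, as in 5.18% of all genes. Fosb had 41.1, 30.6 and 25.35 count equivalents in B6xCast and 22.8, 18.15 and 20.45 in CastxB6, a log2 difference (CastxB6 minus B6xCast) of -0.61 ± 0.20 (SE, n = 3 per cross; limma adjusted p = 0.9188). Nr4a1 differed by -0.34 ± 0.12 (limma adjusted p = 0.9188). In 9 of 10 members the value was lower in CastxB6, with a median of -0.15, where the median over all genes was 0.001, and none of these differences passed.

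Between F1 and the average of the parents, 0 of 10 members passed either, where 12.2% of 14710 genes were called. The members' log2 differences (F1 minus F0) ran from -0.45 for Nr4a1 to 0.26 for Atf3. Unadjusted p was under 0.05 for 4 of them, Fosb, Nr4a1, Npas4 and Junb, all lower in F1, against 24.9% of all genes in either direction and 10.3% lower, with limma adjusted p of 0.1032, 0.1039, 0.1243 and 0.189. Nr4a1 passed without F0 C57BL/6J replicate 3 (adjusted p = 0.03372 in limma), and Fosb and Npas4 passed without F1 B6xCast replicate 1 (0.03259 and 0.02122). Dusp1 and Arc changed sign under TMM, where the share of calls higher in F1 went from 58.8% to 78.2% and the median of all genes from 0.01 to 0.08. This contrast cannot be told apart from the difference in lanes and reference.

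With all 4 groups in 1 test (moderated F of limma), 4 of 10 members differed, Atf3 (F = 34.7, adjusted p = 7.658e-05), Fosb (11.35, 0.004866), Nr4a1 (8.76, 0.01081) and Egr1 (7.58, 0.01654), where 38.2% of all genes did. The share of the sum of squares that lay between groups was 92.0% for Atf3, 84.3% for Fosb, 70.7% for Nr4a1 and 67.2% for Egr1. It was 56.5% for Npas4, 54.2% for Fos, 43.8% for Junb, 42.1% for Arc, 31.0% for Ier2 and 9.95% for Dusp1, while the median gene had 55.4%. In 4 members, Junb, Ier2, Dusp1 and Arc, the range of the group means was less than 2 residual SDs. Atf3 and Fosb thus had the largest shares between genotypes, and Dusp1 the smallest, with most of its variation between pools of 1 genotype.

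In the F1 hybrids both alleles were measured in the same library, so that their ratio is taken within a pool. The log2 ratio of the Cast to the B6 allele was called in 5 of 10 members over the 6 F1 libraries, 2 with the Cast allele lower (Atf3, Dusp1) and 3 with it higher (Arc, Ier2, Junb). Over 13414 polymorphic autosomal genes 45.1% were called, 22.4% with the Cast allele lower and 22.6% with it higher. The members' share is close to that of all genes. Of these calls only that of Atf3 held in every alternative run.

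The B6 allele of Atf3 had 45.5, 52.4 and 41.6 count equivalents in F1 B6xCast and 65, 48.1 and 34.5 in F1 CastxB6. The Cast allele had 8.33, 12.7 and 15.9 in F1 B6xCast and 15.9, 8.57 and 15.7 in F1 CastxB6. The Cast allele was the lower in 6 of 6 libraries, with log2 ratios from -2.36 to -1.09 and, in unique hits summed over the libraries, 51 against 199. The mean log2 ratio was -1.84 ± 0.22 (SE, n = 6; limma adjusted p = 0.0004214), and it was called in all 11 alternatives.

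Arc had the Cast allele higher in 6 of 6 libraries, with log2 ratios of 0.89, 0.87 and 0.17 in F1 B6xCast and 0.73, 0.42 and 0.46 in F1 CastxB6. The mean was 0.59 ± 0.17 (SE, n = 6; limma adjusted p = 0.02363) from 81 Cast and 55 B6 unique hits, and it failed when any single F1 library other than B6xCast replicate 3 was left out. Ier2 was also higher from the Cast allele in 6 of 6, by 0.30 ± 0.08 (limma adjusted p = 0.01461), and failed only without F1 CastxB6 replicate 3 (adjusted p = 0.05059). Junb had 0.26 ± 0.08 (limma adjusted p = 0.03183), higher in 4 of 6, and Dusp1 -0.16 ± 0.05 (0.04592), lower in 5 of 6. Junb and Dusp1 were each called in only 4 of 12 alternatives. Junb failed in 5 of the 6 fits without 1 library and with edgeR (adjusted p = 0.08482), and Dusp1 in all 6 of those fits. Both failed in 1 model over the F0 and F1 columns (limma adjusted p = 0.07463 and 0.2495) and with a replicate block (0.05412 and 0.09626).

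**Figure D4:**
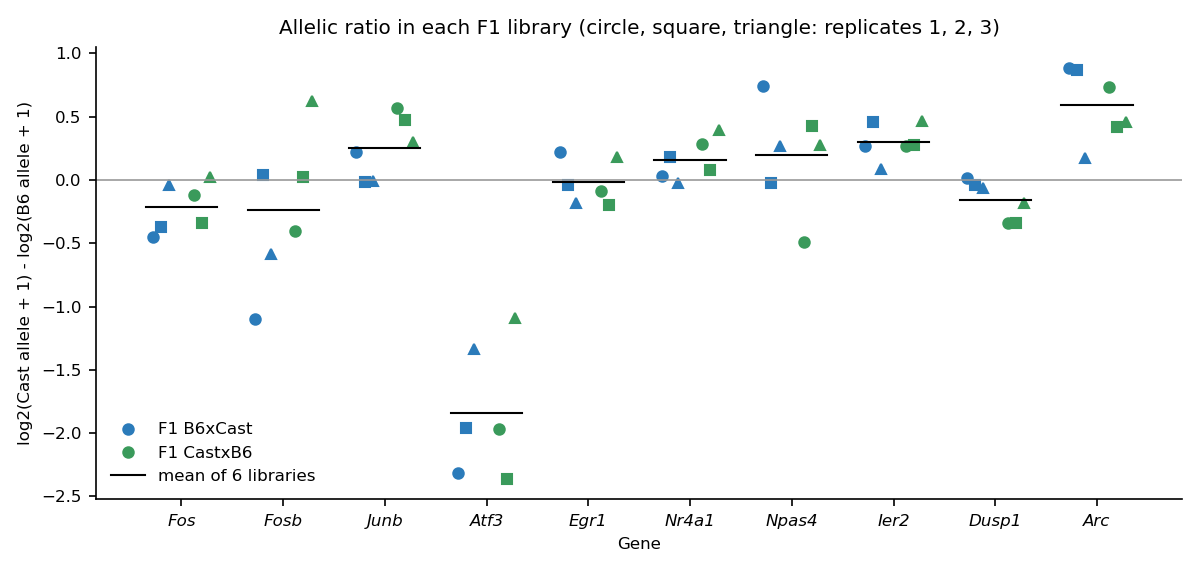
Log2 ratio of the Cast to the B6 allele (count equivalents + 1) in each of the 6 F1 libraries, for the 10 immediate early genes, with a line at the mean. Atf3 lies between -2.36 and -1.09 in all 6 libraries, and Egr1 scatters around 0.

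Egr1, which differed most widely between pools, had nearly equal alleles. Its log2 ratios were 0.22, -0.04 and -0.18 in F1 B6xCast and -0.08, -0.20 and 0.18 in F1 CastxB6, with 900 Cast and 939 B6 unique hits, a mean of -0.02 and a 95% interval of -0.19 to 0.15. Nr4a1 had 0.16 (0.02 to 0.30; limma adjusted p = 0.06223) and Fos -0.22 (-0.40 to -0.03; limma adjusted p = 0.05543). Npas4 had 0.20 (-0.18 to 0.58) and Fosb -0.23 (-0.73 to 0.26). The residual SD of the ratio was 0.20 for Egr1, 0.13 for Nr4a1, 0.07 for Dusp1 and 0.20 for Fos, which is 1.31, 0.87, 0.41 and 1.19 times the trend of such ratios. The ratio exists in F1 alone, so that the F0 pools that stood apart in these genes do not enter it.

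The parent-of-origin term, which asks whether the maternal or the paternal allele is higher, was called in 0 of 10 members, where 0.283% of 13414 genes were called. edgeR on the allele-specific unique hits also called 0 members. Unadjusted p was under 0.05 in 2 members, against 5.09% of all genes, Junb at -0.19 ± 0.08 and Dusp1 at 0.13 ± 0.05 (maternal minus paternal, log2, SE), with a limma adjusted p of 0.9503 for each. In Dusp1 this shows as ratios near 0 in F1 B6xCast (0.02, -0.04 and -0.06) and lower ones in F1 CastxB6 (-0.34, -0.34 and -0.18).

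The trans effect, defined as the F0 strain difference minus the F1 allelic difference, was called in 3 of 10 members, each with a negative sign. Of all 13414 genes 14.0% were called, and 8.31% with a negative sign. Egr1 had -1.45 ± 0.33 (SE; limma adjusted p = 0.00741), Nr4a1 -1.08 ± 0.25 (0.007733) and Arc -1.10 ± 0.30 (0.01961). In Egr1 and Nr4a1 the F0 differences were -1.46 and -0.92 and the allelic ones -0.02 and 0.16. In Arc they were -0.51, which did not pass, and 0.59. Atf3 had -0.97 ± 0.39 and did not pass (adjusted p = 0.114 in limma).

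The library that stood apart weighs on these calls, since the F0 term sets 3 pools against 3. Without F0 C57BL/6J replicate 2 the trans effect was -0.98 for Egr1 (limma adjusted p = 0.006359) and -0.76 for Nr4a1 (0.01441), and Arc did not pass (0.06759). Arc also failed without F0 Cast/EiJ replicate 3 (adjusted p = 0.06452 in limma). The model takes 1 error for F0 and F1 columns, although the F0 pools were more spread for Egr1 and Nr4a1. With separate errors, an alternative added after seeing the data, limma adjusted p was 0.01836 for Egr1, 0.0128 for Nr4a1 and 0.03706 for Arc. F0 and F1 libraries differ in lane and reference here too.

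**Figure D5:**
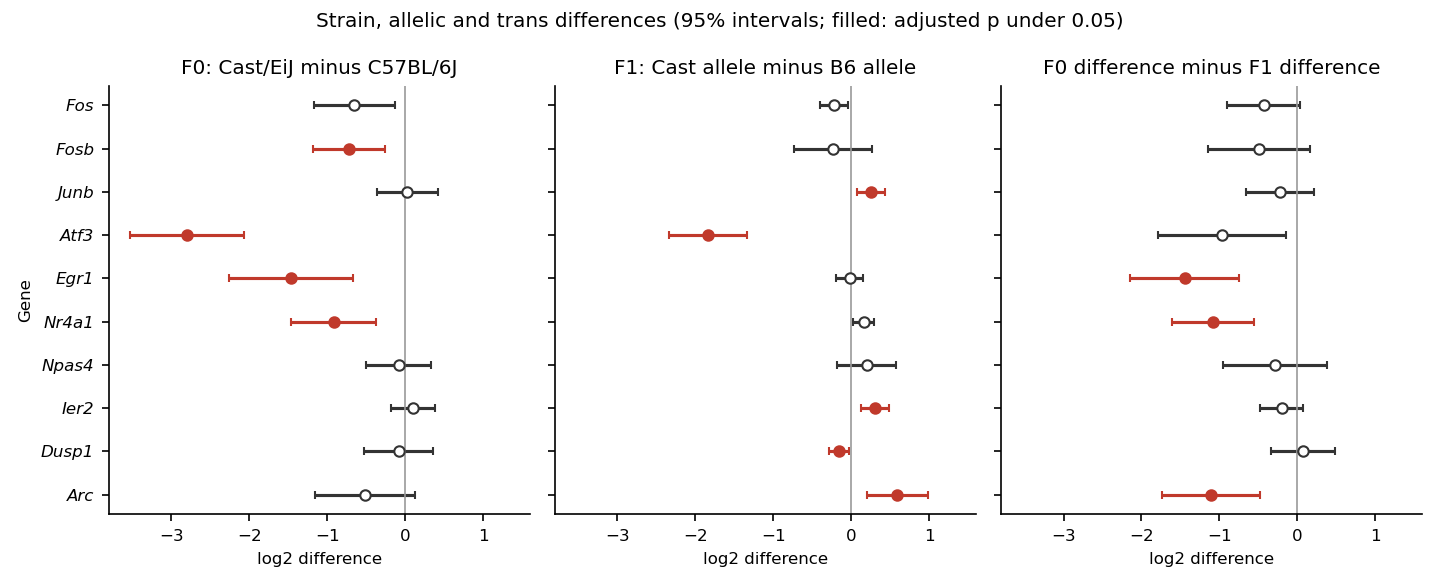
Log2 differences of the 10 immediate early genes with 95% intervals, for the F0 strains (left), the F1 alleles (middle) and the F0 minus the F1 difference (right), with filled points at an adjusted p under 0.05. Atf3 is far below 0 in both F0 (-2.80) and F1 (-1.84), while Egr1 is at -1.46 in F0 and -0.02 in F1.

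The wider families of inducible genes were read from 4 lists of 45 genes. In F0, 11 of the 41 tested were called (26.8%, where all genes gave 33.8%), 5 higher and 6 lower in Cast/EiJ, with a median log2 difference of -0.01. Among the AP-1, EGR and NR4A relatives 1 of 7 was called, Egr4 (-1.54). It had 19.1, 38.6 and 13.1 count equivalents in F0 C57BL/6J and 7.23, 7.09 and 5.9 in F0 Cast/EiJ. Egr4 thus passed the filter on low values only through the group in which it is high, and its call is no result. Among other inducible transcription factors 3 of 10 were called, Klf10 (-1.34), Cebpd (-0.66) and Klf6 (-0.34), all lower. The inducible signalling and mRNA decay regulators had 4 of 15, Ppp1r15a (0.45), which restores translation after stress, Dusp6 (0.41) and Dusp5 (0.37), phosphatases of ERK, and Trib1 (0.31), all higher. The secreted and synaptic effectors had 3 of 9, Ctgf (1.91), an extracellular matrix protein, higher, and Gem (-0.71) and Nrn1 (-0.27) lower.

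In the F1 alleles 15 of 36 of these genes were called (41.7%, where all genes gave 45.1%), 10 with the Cast allele higher and 5 lower. Those with the Cast allele higher were Ptgs2 (2.46), the inducible prostaglandin synthase, Apold1 (1.15), Csrnp1 (0.59), Socs3 (0.54), Jund (0.50), Klf4 (0.49), Fosl2 (0.46), Dusp5 (0.38), Ctgf (0.36) and Rgs2 (0.34). Those with it lower were Cyr61 (-1.13), Gem (-0.74), Klf10 (-0.64), Nrn1 (-0.31) and Sik1 (-0.22). Klf10, Gem and Nrn1, like Atf3, were thus called as lower from Cast/EiJ in both contrasts. The trans effect was called in 4 of 36 (11.1%, where all genes gave 14.0%). They were Klf10 (-0.70), Ptgs2 (-1.76), Ctgf (1.55) and Trib1 (0.38). Ptgs2 had 3.83 to 11.6 count equivalents in F0 and did not pass the filter of the F0 test, so that its trans call is no result. Neither the cross nor the parent-of-origin term was called in any of these genes, 0 of 40 and 0 of 36 by limma. F1 against the parents was called in 5 of 42 (11.9%, where all genes gave 12.2%). They were Ier3 (-3.46), Egr3 (-2.53), Maff (-0.61), Crem (0.58) and Ptgs2 (0.77). Egr3 had 11.4, 12.3 and 13.2 count equivalents in F0 C57BL/6J, 4.27 to 8.72 in F0 Cast/EiJ and 0.327 to 1.41 in F1, and Ptgs2 3.83 to 11.6 in F0 and 9.905 to 14.1 in F1. Each thus passed the filter on low values mainly through the group in which it is high, and its call is no result. The test over the 4 groups called 12 of 42 (28.6%, where all genes gave 38.2%).

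The spread between replicates was at least 2 times the trend in 7 of 42 of these genes (16.7%, where all genes gave 10.4%). They were Ier3, Ctgf, Nr4a3, Fosl2, Rgs2, Jund and Sik1. Ier3 had 437 to 594 count equivalents in F0 and 12.7 to 120 in F1, where lane and reference differ. The outlying C57BL/6J pool was the highest of its strain in Sik1, a kinase of the salt-inducible family, with 249, 533 and 423 count equivalents, and in Nr4a3, a paralog of Nr4a1, with 67, 178 and 129. In Fosl2 (113, 230 and 244), Ctgf and Rgs2 replicate 3 was the highest, and in Ier3 and Jund replicate 1. The outlying pool was highest in 3 of 7 AP-1, EGR and NR4A relatives and 4 of 10 other inducible transcription factors. It was highest in 9 of 15 signalling and mRNA decay regulators and 3 of 10 secreted and synaptic effectors. Among 18 upstream kinases and transcription factors 1 reached that ratio, Creb1, with 1850, 2620 and 1210 count equivalents in F0 Cast/EiJ. In F0, Map2k2 (0.55) was called as higher and Elk3 (-0.99) and Mkl2 (-0.32) as lower in Cast/EiJ, 3 of 18. The allelic difference was called in 6 of 18, among them Elk3 (-0.70), Camk2a (-0.29), Camk2b (0.24), Map2k2 (-0.15) and Mapk3 (0.15). The trans effect was called in 2, Map2k2 (0.70) and Mkl2 (-0.42). Of all genes tested, 33.8% were called in F0, 45.1% between the alleles and 14.0% for the trans effect.

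Among heat shock and unfolded protein genes, 6 of 9 were at or above 2 times the trend and a median ratio of 2.54. They were Hspa1a, Hspa1b, Hspa5, Hspa8, Ddit3 and Hsph1. Hspa1a and Hspa1b are near-identical copies between which reads can be split, and Hspa1a ranged from 21.4 to 1760 count equivalents. In the F0 C57BL/6J pools Hspa5, an endoplasmic reticulum chaperone, had 2450, 3500 and 4100 and Hspa8 14300, 19100 and 21300, and both were highest in replicate 3. Of the 9 genes, 5 were highest in replicate 3 of that strain and 3, Hspa1a, Hspa1b and Hspb1, in replicate 2, the pool in which Egr1 peaked. Hspa1a had 999, 1350 and 1280 there, and Hspa1b 821, 1310 and 1280. In F0 1 of 9 was called, Hspa1b (0.61), and between the alleles 3 of 7, Hspb1 (-0.65), Trib3 (0.58) and Hspa8 (0.55). Among 14 clock genes 2 reached the ratio, Per2 (2.03 times the trend) and Dbp (2.30 times), and 2 were called in F0, Arntl (0.24) and Cry1 (-0.32). Between the alleles 5 of 13 clock genes were called, Per3 (0.30), Per1 (0.27), Cry2 (0.22), Nr1d2 (0.10) and Cry1 (-0.21). Of all genes tested, 10.4% reached 2 times the trend, 33.8% were called in F0 and 45.1% between the alleles. In F0 C57BL/6J, 9 of the 14 clock genes were highest in replicate 2, 3 in replicate 1 and 2 in replicate 3. Per2, which is itself inducible by light, was among the 9, with 488, 681 and 525.

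The 10 other genes most like the members were ranked by Pearson's r with the members' mean deviation over the 12 libraries, among the 2273 genes whose mean was 50 count equivalents or more and whose residual SD was 0.2 or more. They were Gm16477 (0.89), Gm14059 (0.88), Gm10874 (0.85), Efna3 (0.84), Hsd3b7 (0.79), Gm10254 (0.78), AK157302 (0.76), Ticam1 (0.76), C530008M17Rik (0.75) and Gm16334 (0.74). The correlations were chosen as the highest of those ranked, and are a description. Without the 3 F0 C57BL/6J libraries their r lay between -0.46 (Gm10254) and 0.76 (Efna3). None of the listed inducible genes was among the 10. Jun had 0.77 but a residual SD of 0.099, and Egr4 had 0.76 but a mean of 12.1 count equivalents, so that neither was ranked, while Sik1 had 0.73 and Per2 0.72.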

How the data were processed

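Polyadenylated, non-strand-specific mRNA was sequenced in paired reads. The authors trimmed reads with Trim Galore 0.2.6, aligned them with Bowtie 0.12.9 to strain-specific (F0) or hybrid (F1) Ensembl release 67 transcriptomes on NCBI37, and estimated expression with MMSEQ 1.0.0 beta. The authors deposited count equivalents (a signal, normalized by them, written to 3 significant figures), the natural log of expression (its exponential serves as FPKM), the posterior SD of that log (a score, not used in tests) and unique hits (a count, not normalized, of reads unique to a gene in F0 and to an allele in F1). Of the authors' deposited comparison table, which holds posterior probabilities of regulatory models and an imprinting ratio, only the polymorphism flag was used, and 36 of its columns of per-sample values were not used.

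The members, lists and tests were chosen with earlier results of these data known. Autosomal genes that reached 10 count equivalents in 3 or more libraries were tested with limma 3.58.1 (trend) in R 4.3.3 on log2(count equivalents + 1), so that fold changes of low genes are understated. Allelic tests used log2 ratios within F1 libraries over polymorphic genes averaging 10 or more unique hits to the alleles, and the trans effect 1 model with the library as a block (consensus correlation 0.1354). Calls were made at a Benjamini-Hochberg adjusted p under 0.05. edgeR 4.0.16 and DESeq2 1.42.0 on unique hits, other pseudocounts, filters and scalings, a replicate block and each library left out were alternatives. Where a library was left out, the other libraries gave the spread. The fits were tested on simulated data. Replicates of a group differed by more than counting noise (chi-square per degree of freedom of at least 1.68).

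All 10 members were named, and of each list the genes called or with a residual SD of at least 2 times the trend, up to 8 per list and comparison by fold, and the 10 genes most like the members. Promoters came from RefSeq (GRCm38.p6), matched by symbol, GC content from the transcripts of an NCBIM37 annotation, which gave 9 of 10 members the same interval as the deposited tables. Python 3.11.15, numpy, pandas and matplotlib were used for the rest. The allelic value of 1 listed gene is not reported here.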

Additional observations from a re-analysis of the deposited data

Results flagged for a closer look

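The F0 strain difference and the F1 allelic difference of 3 members differed by the test of that difference itself. The log2 value was -1.45 for Egr1, -1.08 for Nr4a1 and -1.10 for Arc (F0 difference minus F1 allelic difference). Under the alternatives, limma adjusted p ranged from 0.001842 to 0.02902 for Egr1, from 0.002145 to 0.0287 for Nr4a1 and from 0.01258 to 0.06759 for Arc. For Egr1 and Nr4a1 the value was smallest without F0 C57BL/6J replicate 2, the pool in which both peaked. Groups of 3 libraries are too small for a search for outlying libraries by Dixon's test, and none was made.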

How the results depend on the processing

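Of the members, 4 were called in F0, 4 among the 4 groups and 5 between the alleles. Without a filter on low values F0 called 2 members (3161 genes in all, against 4887) and the 4 groups 2, while the reciprocal cross called 22 genes in place of 5. More genes were tested there, 34964 in F0. Leaving out each library gave 2 to 4 members in F0 (2 without F0 Cast/EiJ replicate 1), 0 to 2 for F1 against the parents and 2 to 4 between the alleles, with fewer samples in each fit. Between the alleles, 2 members were called without replicate 1 or 2 of F1 B6xCast or replicate 1 or 3 of F1 CastxB6, and 3 without replicate 2 of the latter. For the cross it gave 4 to 12 genes in all, with 12 without F1 B6xCast replicate 1. The single model with the library as a block called 3 members between the alleles, and 66 genes in place of 38 for the parent of origin, where edgeR called 59. For the cross edgeR called 3 genes and DESeq2 11. TMM factors raised the genes called for F1 against the parents from 1797 to 2898. The cause was not tested for these tools and factors. The library numbers were not taken to pair the samples, since not every same-numbered pair had a correlation of deviations over 0.1. It was above that in 6 of 18, all among F0 C57BL/6J, F0 Cast/EiJ and F1 B6xCast, where r was 0.28 to 0.30 for number 1, 0.12 to 0.15 for number 3 and 0.03 to 0.05 for number 2, while pairs with F1 CastxB6 ran from -0.11 to 0.02. With a replicate block 5 members were called in F0, with Fos added (limma adjusted p = 0.003692), 5 among the 4 groups, 4 between the alleles and 3 for the trans effect, and all genes called in F0 were 6376. No member reversed sign with a call under any alternative. Among single members, 125 of 140 F0 values and 90 of 117 allelic values kept their side of the threshold, as did 140 of 140 for the cross and 117 of 117 for the parent of origin. Depth limits Atf3, Fosb and Arc, with as few as 4, 12 and 13 unique hits in a library.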
